A study of Mus musculus with 6 samples.

Results

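Plcb1, the gene of phospholipase C beta 1, was followed through every cell type that marker genes could separate in the lungs of 6 mice. It is 1 of the 32285 genes in the unique molecular identifier (UMI) tables and 1 of the 4 genes of the phospholipase C beta family. It was chosen because earlier results from these same UMIs had it among the genes that differed between treatments in a group of endothelial cells. Its differences between treatments are therefore given as values with errors and without a test. Its levels in other cell types and its paralogs were not used in that choice. A gene must be detected in a group to be called there, so its endothelial level is not independent of the choice. The pathway lists were chosen with earlier results of these data known.

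The mice were male hCTLA4 knock-in animals of 12 weeks on a C57BL/6 background, in which part of mouse Ctla4 is replaced by human sequence so that the human antibody ipilimumab can bind. All 6 received bleomycin, which scars the lung, by the oropharyngeal route at 1.25 U/kg, in 2 doses given 2 weeks apart. From day 21 after the second dose they were given antibody intraperitoneally at 5 mg/kg for 4.5 weeks. It was either an IgG1 isotype control (3 mice) or ipilimumab (3 mice), and the right lung was profiled by droplet single-cell RNA-Seq. Every group carries the knock-in allele and bleomycin, so neither could be compared with its absence. Each library was taken as 1 mouse.

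Phospholipase C beta enzymes sit below receptors that signal through the Gq class of G proteins. They cut a phosphoinositide of the plasma membrane into inositol trisphosphate (IP3), which releases calcium from internal stores, and diacylglycerol, which activates protein kinase C. In lung vessels this route carries signals of thrombin, endothelin, histamine and bradykinin. Within the lung capillary bed, aerocytes are the wide, thin cells of gas exchange, and general capillary cells are the smaller cells that also serve as progenitors.

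Plcb1 (ENSMUSG00000051177) lies at chr2:134786067-135475258 on the plus strand of mm10 and spans 689 kb. In the GENCODE annotation it has 8 transcripts, 3 of them protein coding, with 33 exons in the longest coding one. Exons of any transcript cover 1.61% of the gene and 98.4% is intron only, so a count that includes intronic reads can weigh heavily on it. Plcb4 (ENSMUSG00000039943, chr2:135659011-136014593, plus strand) begins 184 kb beyond its end. Plcb2 (ENSMUSG00000040061) lies on the minus strand at chr2:118707517-118728438, and Plcb3 (ENSMUSG00000024960) on the minus strand at chr19:6952325-6976470.

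The promoters of the neighbouring pair Plcb1 and Plcb4 are shown because these genes lie side by side and yet had different cell type patterns. They are 300-base windows from RefSeq (GRCm38.p6), 250 bases before to 50 after the start, and capitals mark the GC box GGGCGG on either strand.
Plcb1, chr2:134785914-134786213, plus strand: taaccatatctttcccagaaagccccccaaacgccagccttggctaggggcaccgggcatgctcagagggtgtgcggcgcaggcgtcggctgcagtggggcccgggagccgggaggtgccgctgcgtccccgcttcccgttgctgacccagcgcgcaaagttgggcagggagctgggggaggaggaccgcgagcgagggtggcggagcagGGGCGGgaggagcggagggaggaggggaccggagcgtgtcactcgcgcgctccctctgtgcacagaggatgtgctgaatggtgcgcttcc
Plcb4, chr2:135659297-135659596, plus strand: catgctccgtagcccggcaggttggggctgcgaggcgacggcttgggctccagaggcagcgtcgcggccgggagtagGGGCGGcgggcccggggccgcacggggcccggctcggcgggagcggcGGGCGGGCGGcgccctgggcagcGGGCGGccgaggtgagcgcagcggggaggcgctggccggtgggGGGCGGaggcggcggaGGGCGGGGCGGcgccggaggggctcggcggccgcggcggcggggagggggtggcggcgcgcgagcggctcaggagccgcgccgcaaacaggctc
The Plcb1 window was 69.7% G or C with 26 CpG dinucleotides, against medians of 52.7% and 7.0 over all 32851 promoters of the table. It held 1 GC box, and the Plcb4 window shown held 7 overlapping or separate ones. The window of a second Plcb4 start, not shown, held 0 and was 44.3% G or C with 3 CpG dinucleotides. A GC box was found in 35.7% of all promoters. The TATA box TATAAA, found in 13.6%, was in none of the 5 promoter windows of the family. The letters GAGGAA of the PU.1 motif were found in 28.3% of all promoters. They occurred 2 times in the Plcb2 window, 2 times in that of the second Plcb4 start, and not in the Plcb1 window. The ETS letters CCGGAA, found in 14.9%, occurred in the Plcb2 window alone among the 5. These are matches of letters on both strands and say nothing of binding.

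The 6 libraries held 37666042 to 48612412 UMIs, and 23512 cells were used, 3224 to 4240 a library. Pairs of libraries shared 0 to 9 cell barcodes. The library ipilimumab replicate 1 stood apart, with 22056 barcodes of at least 100 UMIs (4834 to 6230 in the others) and 77.4% of its UMIs in called cells (91.9 to 93.0% in the others). Cells were sorted into types, called gates here, by the UMIs of 4 or 5 marker genes per type, and 21909 cells (93.2%) fell into a single gate. Blood endothelium was divided further with the markers Car4, Ednrb, Fibin and Tbx2 for aerocytes and Gpihbp1, Plvap, Aplnr and Kit for general capillary cells.

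Most Plcb1 UMIs lay in a few cell types. Of 85933 Plcb1 UMIs in cells, 57.7% were in alveolar macrophages, the resident phagocytes of the airspace, which held 22.3% of all UMIs. Blood endothelium had 12.6% of Plcb1 UMIs with 3.28% of all UMIs, and classical monocytes, the Ly6c2-high monocytes that enter inflamed tissue, 10.3% with 2.80%. B cells and T cells held 22.4% and 21.1% of all UMIs, and 0.297% and 0.223% of those of Plcb1. In all, 4619 of the cells (19.6%) had a Plcb1 UMI.

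Levels are given as CPM, the UMIs of Plcb1 per 1000000 UMIs of the gate in a mouse, and they were compared with ambient barcodes, which hold free RNA and no cell. Ambient Plcb1 was 129 ± 15.7 CPM (SD, n = 6). By mouse it was 104, 124 and 121 CPM with IgG1 and 138, 146 and 140 CPM with ipilimumab. The ambient levels of the 2 groups did not overlap. Here and below, the share of all genes whose treatment groups do not overlap was not counted, so such a separation is a description only.

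General capillary cells had the highest level, 3175 ± 736 CPM (SD, n = 6). The mice had 3829, 2041 and 3439 CPM with IgG1 and 3943, 3199 and 2596 CPM with ipilimumab, so the groups overlapped. Classical monocytes followed at 1366 ± 330 CPM, with 1466, 1356 and 1423 CPM in IgG1 mice and 1854, 834 and 1262 CPM in ipilimumab mice. Alveolar macrophages were the most even, at 962 ± 104 CPM, with 848, 1137 and 929 CPM with IgG1 and 1022, 949 and 888 CPM with ipilimumab. Nonclassical monocytes, which patrol the vessel wall, had 464 ± 177 CPM, from 481 to 548 CPM with IgG1 and 191, 353 and 711 CPM with ipilimumab.

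Interstitial macrophages had 140 ± 73.0 CPM, adventitial fibroblasts 99.2 ± 30 CPM, aerocytes 73.1 ± 62.6 CPM, alveolar fibroblasts 70.5 ± 51.6 CPM and neutrophils 67.0 ± 33.1 CPM. Dendritic cells had 15.4 ± 19.8 CPM, B cells 5.30 ± 7.70 CPM, T cells 3.86 ± 4.53 CPM and NK cells 2.45 ± 2.06 CPM (SD, n = 6 mice for each). The lymphocytes were at the low end, and aerocytes and neutrophils lay near the fibroblasts.

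**Figure D1:**
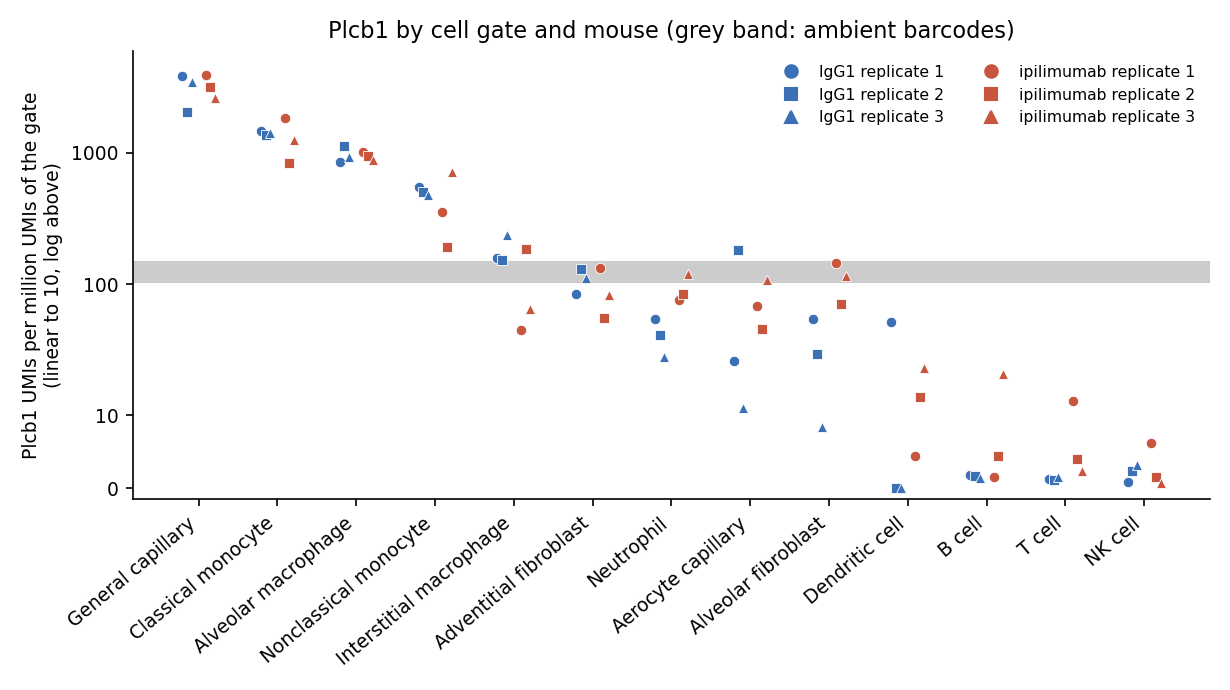
Plcb1 level in CPM (vertical axis, linear to 10 and logarithmic above) in 13 cell gates, with 1 point per mouse, blue for IgG1 and red for ipilimumab, and the shape giving the replicate. The grey band spans the ambient barcodes of the 6 libraries (104 to 146), and the gates from general capillary to nonclassical monocyte lie above it in every mouse.

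Of 14 gates tested against the ambient barcodes of the same library, 5 were above them in 6 of 6 mice. General capillary cells are part of blood endothelium, so these gates are not separate. Plcb1 was also chosen through a group of endothelial cells, where a gene must be detected to be called. The tests of both endothelial gates are thus not independent of that choice. The mean difference on the log2(CPM + 10) scale was 4.49 ± 0.43 in general capillary cells, 3.29 ± 0.59 in all blood endothelium, 3.28 ± 0.47 in classical monocytes, 2.81 ± 0.19 in alveolar macrophages and 1.67 ± 0.74 in nonclassical monocytes (SD, n = 6). Each gave p = 0.0312 by a two-sided exact sign-flip permutation test, the smallest that 6 mice allow, and 0.0437 after Benjamini-Hochberg adjustment over the gates. Another 5 gates were below ambient in 6 of 6 mice with the same p-values, namely B, T and NK cells, dendritic cells and neutrophils. The remaining 4 (interstitial macrophages, both fibroblast gates and aerocytes) did not pass, with exact adjusted p-values from 0.0729 to 0.906. Aerocytes were 1.09 ± 1.09 below ambient on this scale, with 1 of 6 mice above it. At the ambient share of each library, 0.341 to 1.02% of UMIs, free RNA would give 0.424 to 1.41 CPM of Plcb1. A gate level below that of ambient barcodes, or not apart from it, thus does not show a lack of Plcb1.

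The order of the gates is a description, since neighbours were set by sorting on the same values. Over the 12 neighbouring pairs the exact sign-flip permutation test with Benjamini-Hochberg adjustment could pass a pair only if at least 8 reached the smallest p of 0.0312, and 4 did, so it says nothing of single pairs. General capillary cells were above classical monocytes in 6 of 6 mice, by 1.21 ± 0.44 on the log2(CPM + 10) scale (SD, n = 6). Classical monocytes were above alveolar macrophages in 5 of 6 mice, by 0.47 ± 0.39. Alveolar macrophages were above nonclassical monocytes by 1.13 ± 0.69, and those above interstitial macrophages by 1.74 ± 1.17, each in 6 of 6 mice. From interstitial macrophages down to alveolar fibroblasts the mean difference between neighbours, 0.00 to 0.57, was smaller than its SD over mice.

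In 4 of the 5 gates above ambient most cells had a Plcb1 UMI, and in nonclassical monocytes fewer did. A Plcb1 UMI was found in 383 of 397 general capillary cells (96.5%), with a median of 12 UMIs a cell at a median depth of 4696 UMIs. Alveolar macrophages had a UMI in 91.5% of cells (median of 15 Plcb1 UMIs at 21239.5 UMIs a cell), classical monocytes in 82.6% (14 at 12584) and blood endothelium as a whole in 62.3%. Of 634 nonclassical monocytes 289 had one (45.6%), with a median of 0, and 25.4% had 5 or more. As background, B cells, a lineage with Plcb1 below the ambient level, had a UMI in 82 of 8117 cells (1.01%, 95% Wilson interval 0.815 to 1.25%) at a median depth of 5661 UMIs. T cells had one in 62 of 4880 (1.27%, 0.992 to 1.63%) and NK cells in 14 of 1353 (1.03%, 0.617 to 1.73%). Intervals cover counting error only.

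At equal depth the means of the 4 highest gates kept their order, but 2 of these gates overlapped between mice. With each cell thinned to 2000 UMIs, the share with a Plcb1 UMI, as a mean over mice, was 94.1% in general capillary cells, 70.6% in classical monocytes, 67.6% in alveolar macrophages, 31.6% in nonclassical monocytes and 11.4% in interstitial macrophages. It was 4.27% in aerocytes, 0.477% in B cells and 0.334% in T cells. By mouse, classical monocytes (63.3 to 78.0%) and alveolar macrophages (61.9 to 71.0%) overlapped. Thinned blood endothelium had 55.3 ± 11.9% (SD, n = 6), with 51.1% in IgG1 mice and 59.5% in ipilimumab mice, after leaving out 91 and 203 shallower cells. The share differed with depth within gates, but not in 1 direction throughout. In classical monocytes it was 48.0% at 2000 to 5000 UMIs, 68.9% at 5000 to 10000 and 88.9% at 10000 to 20000, and 67.9% of 28 cells at 20000 to 50000, where the level was 728 CPM. In aerocytes it was 10.3, 9.26, 5.74 and 20.6% in the bins from 1000 to 20000 UMIs. In nonclassical monocytes it went from 25% to 73.5% over the depths shown, and the level in those bins was 185, 260, 636 and 463 CPM from the shallowest to the deepest. General capillary cells had a UMI in 28 of 32 cells even at 1000 to 2000 UMIs, and in 141 of 141 at 5000 to 10000.

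**Figure D2:**
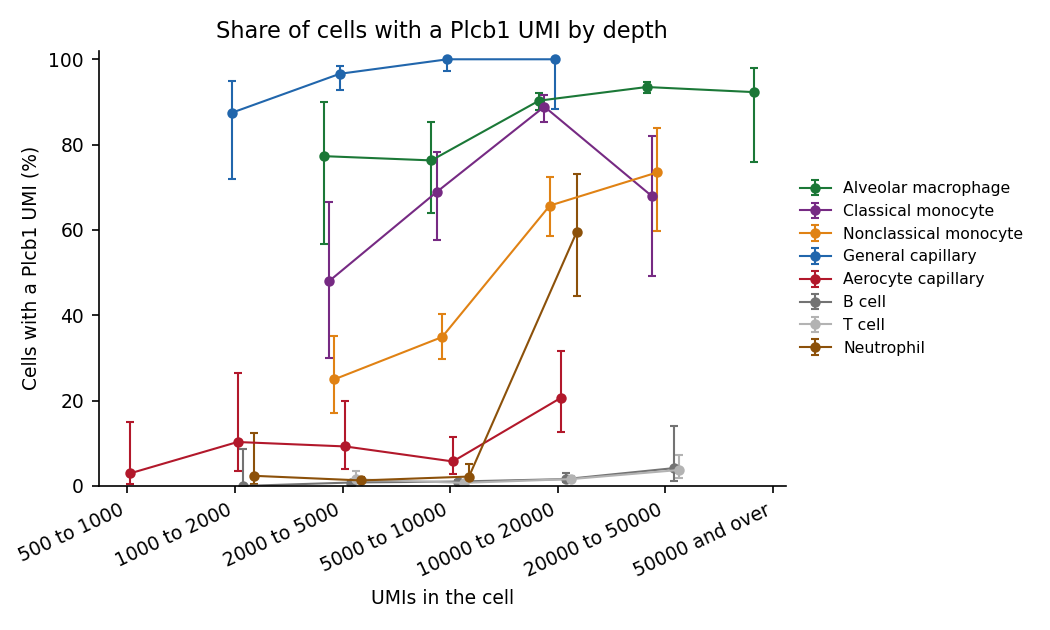
Share of cells with a Plcb1 UMI (vertical axis, percent) by the number of UMIs in the cell (horizontal axis), for 8 gates and bins of at least 20 cells pooled over the mice, with 95% Wilson intervals that cover counting error only. General capillary cells lie between 87.5 and 100% at every depth, B and T cells stay at or under 4.17%, and neutrophils step up to 59.5% at 10000 to 20000 UMIs.

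The capillary bed was divided in its Plcb1. A Plcb1 UMI was in 383 of 397 general capillary cells and in 33 of 312 aerocytes (10.6%), and the aerocytes were the deeper cells (median 6639 UMIs against 4696). By mouse, aerocytes had 25.8, 181 and 11.4 CPM with IgG1 and 67.6, 45.5 and 107 CPM with ipilimumab, and every general capillary value was above 2000. The markers of alveolar macrophages, which held most Plcb1 UMIs, had a UMI in 3.21% of aerocytes and 3.53% of general capillary cells, and their part in the levels was not tested. Other endothelial cells had Plcb1 as well: 23 of 26 venous cells, 9 of 14 arterial cells and 67.4% of 371 that the markers could not resolve.

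**Figure D3:**
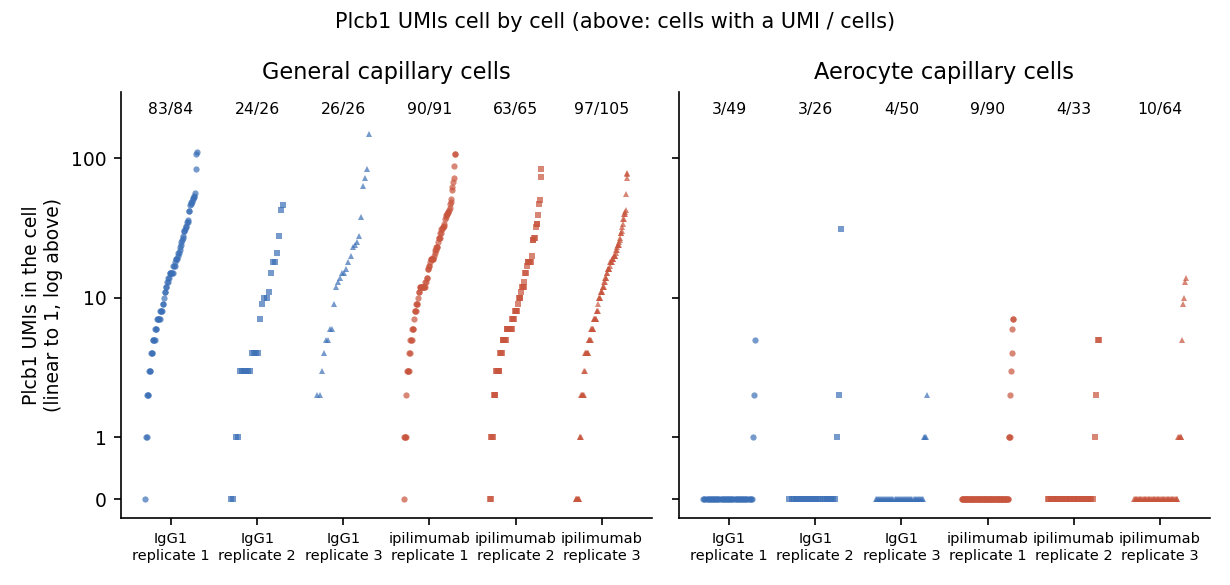
Plcb1 UMIs in each cell (vertical axis, linear to 1 and logarithmic above) of the general capillary gate (left) and the aerocyte gate (right), by mouse, with cells sorted by value and the number of cells with a UMI over all cells written above. Nearly all general capillary cells hold several UMIs and most aerocytes hold 0, while 1 aerocyte of IgG1 replicate 2 holds 31.

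The same contrast in an edgeR quasi-likelihood fit with the mouse as a block gave Plcb1 a log2 fold change of 5.66 ± 0.41 (SE), the 25th highest of 5670 genes. This pair of gates, and the other pairs below, were chosen after the Plcb1 levels were seen, so Plcb1 is given there without a p-value. In that fit 23.0% of genes were called higher in general capillary cells and 20.7% lower (adjusted p under 0.05 and a log2 fold change beyond 0.3), which is the background for the pathway genes. Plcb4 was higher in general capillary cells too, by 0.79 ± 0.15 (edgeR adjusted p = 0.000442), at 710 ± 93.9 against 419 ± 74.1 CPM. Plcb3 had -0.33 ± 0.26 (adjusted p = 0.335) and Plcb2 was too low to test.

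Of the other Gq pathway genes, list by list and without the gate markers, 2 of 11 tested G proteins and regulators were higher in general capillary cells and 3 lower, as were 6 and 4 of 19 genes of the IP3 and calcium arm, 2 and 6 of 14 of the diacylglycerol arm, and 2 and 5 of 13 of phosphoinositide supply and IP3 removal. Both tested Gq-coupled receptors were lower. The list medians lay between -0.27 and 0.06 for these 4 lists, against -0.02 for all genes, and the members below were chosen after their values were seen. Among the alpha subunits, Gna14 was higher by 5.31 ± 0.40 (edgeR adjusted p = 2.67e-08, 282 against 6.08 CPM), while Gnaq (-0.42 ± 0.14, adjusted p = 0.0268) and Gna11 (-1.25 ± 0.18, adjusted p = 4.59e-05) were lower. The IP3 receptors Itpr1 (2.18 ± 0.19, adjusted p = 1.46e-07) and Itpr2 (0.90 ± 0.19, adjusted p = 0.00116) were higher. The protein kinase C genes Prkca (-1.48 ± 0.23, adjusted p = 8.03e-05) and Prkce (-0.45 ± 0.13, adjusted p = 0.0112) were lower, as was the bradykinin receptor Bdkrb2 (-3.31 ± 0.38, adjusted p = 2.96e-06).

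Among monocytes Plcb1 was 1.68 ± 0.16 (SE) higher in classical than in nonclassical cells on the log2 scale, 1366 against 464 CPM. In that comparison 18.9% of 7798 genes were called higher and 19.2% lower. Of 11 tested Gq family G proteins and regulators 2 were higher in classical monocytes and 5 lower, with a median of -0.22 against -0.03. The diacylglycerol arm had 2 higher and 6 lower of 15. Gnaq was also higher in classical monocytes (0.84 ± 0.10, edgeR adjusted p = 2.27e-05), and so was Prkca (2.39 ± 0.33, adjusted p = 6.83e-05), whereas Prkcb (-1.16 ± 0.08, adjusted p = 1.73e-07), Prkcd (-0.38 ± 0.09, adjusted p = 0.00397) and Prkch (-1.01 ± 0.09, adjusted p = 1.51e-06) were lower. Of 21 tested genes of the IP3 and calcium arm 2 were higher and 8 lower, with a median of -0.29 against -0.03 for all genes.

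Within the nonclassical gate, cells with Plcb1 had more of the classical markers. Nonclassical cells with a Plcb1 UMI had a higher classical marker score than those without in 6 of 6 mice (0.17 against 0.07, the mean over markers of log2 of 1 plus the UMIs above ambient per 10000) and a lower nonclassical score in 6 of 6 (1.66 against 2.00). Their alveolar macrophage marker score was higher in 6 of 6 mice as well, by 0.01, and its part in the difference was not tested. They were also deeper (median 10422 against 7058 UMIs). Among nonclassical cells of 5000 to 10000 UMIs, the classical score was still higher in 6 of 6 mice, by 0.10 ± 0.08 (SD), and the nonclassical score lower in 5 of 6, by 0.20 ± 0.25. Classical monocytes with a Plcb1 UMI had a classical score of 2.03 against 1.26 in those without, higher in 6 of 6 mice, and a nonclassical score of 0.21 against 0.07, also higher in 6 of 6 (median depth 12909 against 10346 UMIs).

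Among macrophages Plcb1 was 2.73 ± 0.23 (SE) higher in alveolar than in interstitial cells on the log2 scale, at 962 against 140 CPM, where 14.4% of 10161 genes were called higher and 17.0% lower. Plcb2, the paralog known best from blood cells, was higher too (0.73 ± 0.19, edgeR adjusted p = 0.00725). The IP3 receptors went opposite ways, Itpr2 higher (1.10 ± 0.13, adjusted p = 1.45e-05) and Itpr1 lower (-0.82 ± 0.16, adjusted p = 0.00121). Of 16 tested genes of the diacylglycerol arm 2 were higher and 7 lower, with a median of -0.30 against 0.02 for all genes, and of 6 Gq-coupled receptors 1 was higher and 4 lower. The IP3 and calcium arm had 4 higher and 5 lower of 21. Prkch was higher (1.67 ± 0.15, adjusted p = 6.79e-07) and Prkcb lower (-3.65 ± 0.16, adjusted p = 5.79e-10). Of 165 interstitial macrophages 45 had a Plcb1 UMI, and in the 5 mice that allowed the comparison those cells had a lower interstitial marker score (1.22 against 2.79, lower in 5 of 5), with a median of 25032 UMIs against 16063.

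Lymphocytes had little Plcb1, and in B and T cells pooled over the mice most of its UMIs lay in a few cells. From the ambient share of each library (0.341 to 1.02% of UMIs), 0.424 to 1.41 CPM of Plcb1 would come from free RNA. IgG1 mice had 1.84, 1.65 and 1.46 CPM in B cells and 1.24, 1.13 and 1.58 CPM in T cells. The ipilimumab mice had 1.53, 4.47 and 20.8 CPM in B cells and 12.8, 4.03 and 2.33 CPM in T cells. Of the 255 UMIs in B cells, 68.6% were in 5 cells with at least 5 UMIs each, and 1 cell of ipilimumab replicate 3 held 130. Of the 192 in T cells, 59.4% were in 7 cells, the highest with 52 in ipilimumab replicate 1. In IgG1 mice the UMIs of B cells were spread, 21, 11 and 13 of them over 16, 11 and 11 cells. NK cells had 22 UMIs in 14 cells, at most 4 in a cell. The 2 groups did not overlap in T cells, where the IgG1 mice had 8 to 14 Plcb1 UMIs each. The share of all genes without overlap was not counted. Of CD4 and CD8 T cells, 1.34% and 1.04% had a UMI.

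Neutrophil Plcb1 was likewise in a small group. The 56 cells of the gate with at least 10000 UMIs held 439 of its 476 Plcb1 UMIs (452 CPM, 67.9% with a UMI), and the other 1756 cells held 37 (5.35 CPM, 1.42% with a UMI). The deep cells had a lower median neutrophil marker score (1.92 against 3.06) and more UMIs of monocyte and macrophage markers (median 10.9 against 7.39 per 10000). They made up 2.05, 1.41 and 2.60% of the gate in IgG1 mice and 2.56, 8.0 and 6.95% in ipilimumab mice. Gate-wide Plcb1 was 54.2, 41.0 and 27.8 CPM with IgG1 and 75.8, 83.9 and 119 CPM with ipilimumab, without overlap. In the shallower cells alone it was 4.57, 2.25 and 3.58 CPM against 14.2, 5.31 and 9.22 CPM, from 3 to 13 UMIs a mouse.

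The paralogs shared some of their highest gates with Plcb1 and differed in others. Among the gates with at least 5 cells in all 6 mice, Plcb4 was highest in the 2 capillary gates, with a UMI in 84.1% of general capillary cells and 68.6% of aerocytes, so aerocytes that mostly lacked Plcb1 UMIs had Plcb4. By mouse aerocyte Plcb4 was 449, 340 and 538 CPM with IgG1 and 408, 343 and 439 CPM with ipilimumab. Lymphatic endothelium (602 CPM) and venous endothelium (561 CPM) reached 5 cells in 1 mouse each. Plcb4 was 125 ± 34.9 CPM in adventitial fibroblasts, 116 ± 18.6 CPM in NK cells and 105 ± 43.0 CPM in alveolar fibroblasts (SD, n = 6), against an ambient level of 19.8 ± 5.16 CPM. CD4 T cells had 58.3 ± 12.6 CPM and CD8 T cells 10.0 ± 3.99 CPM, from 44.2 to 71.2 and from 6.85 to 17.4, without overlap. This separation was not tested, and the share of all genes so separated was not counted. Alveolar macrophages, where most Plcb1 UMIs were, had 0.999 ± 0.359 CPM of Plcb4.

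Plcb3 was highest in ciliated cells, at 244 ± 54.8 CPM (n = 5 mice with at least 5 such cells) and in 48 of 62 of them (77.4%). It was 41.3 ± 10.3 CPM in aerocytes and 35.1 ± 18.8 CPM in general capillary cells, against 35.9 ± 6.64 CPM in ambient barcodes. Plcb2 was highest in alveolar macrophages (49.4 ± 4.36 CPM, 59.7% of cells) and dendritic cells (37.5 ± 10.6 CPM, 46.7% of cells), with 55.7 ± 8.67 CPM in ambient barcodes.

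**Figure D4:**
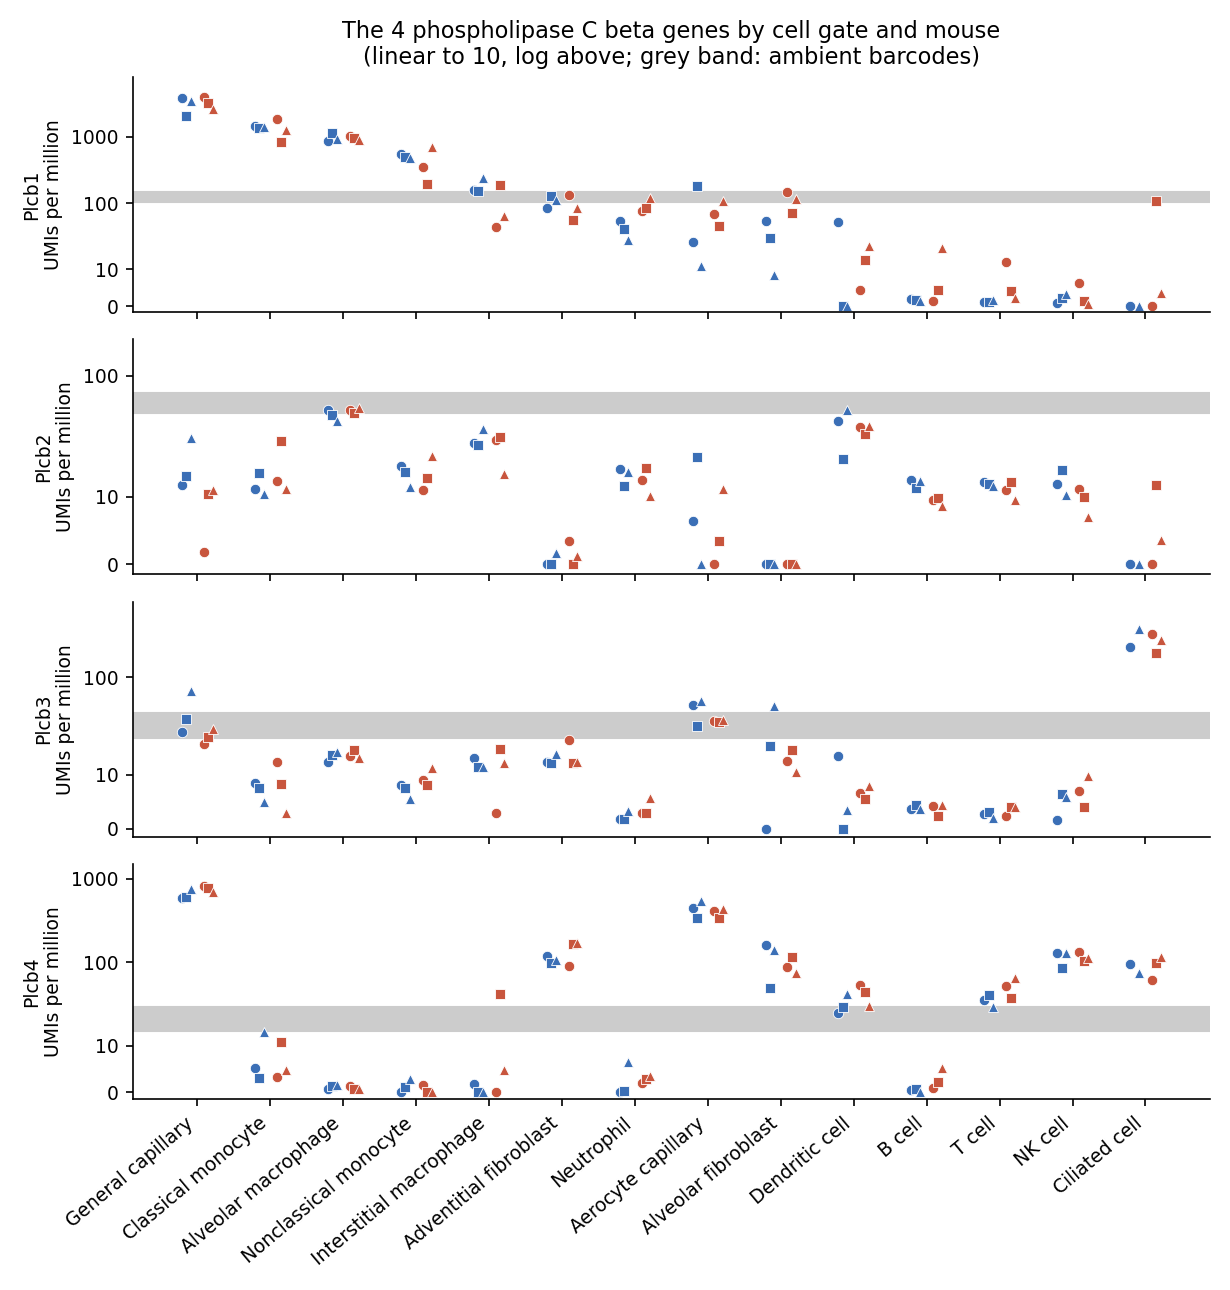
The 4 phospholipase C beta genes in 14 gates, in CPM (vertical axes, linear to 10 and logarithmic above), 1 point per mouse with blue for IgG1 and red for ipilimumab (circle, square and triangle for replicates 1, 2 and 3), and a grey band for the ambient barcodes. Plcb1 peaks in general capillary cells and is next highest in classical monocytes and alveolar macrophages. Plcb4 peaks in both capillary gates, Plcb3 in ciliated cells and Plcb2 in alveolar macrophages, each by its own scale.

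Among the genes next to Plcb1, the pattern over gates was not shared on the lower side. Tmx4, a thioredoxin-related membrane protein gene 141.9 kb below its start, had between 37.5 and 82.0 CPM in 6 gates. These were blood endothelium, general capillary cells, aerocytes, alveolar macrophages and both monocyte gates. Hao1, a glycolate oxidase gene at 231.7 kb, had at most 5.60 CPM, and Bmp2, Platr3, A430048G15Rik, Gm14100, Gm14209, Gm14211 and Gm14210 stayed at or under 6.25 CPM. The antisense gene 9630028H03Rik, which overlaps the end of Plcb1, had 55.3 CPM in general capillary cells, 15.6 in classical monocytes, 2.47 in alveolar macrophages and 1.35 in aerocytes. The antisense gene 4930545L23Rik inside Plcb1 had 21.0 CPM in general capillary cells, 10.5 in classical monocytes and 0 in aerocytes. How the counting treated strand is not given in the sources used here, so reads of these antisense genes and of Plcb1 may be mixed.

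Over the 24 main gates, the genes most like Plcb1 by Pearson correlation of log2(CPM + 10), pooled over mice, were Plod3 (0.86), Scarb1 (0.80), Tmbim1, Wdfy3 and Gnaq (0.76 each) and Cyth3, Itpripl2 and Map7d1 (0.75 each). The median over 14364 genes was -0.03. Plod3 encodes a lysyl hydroxylase of collagen, Scarb1 a receptor for high-density lipoprotein and Gnaq the Gq alpha subunit that activates phospholipase C beta. Gnaq had 819 CPM in blood endothelium, 611 in classical monocytes, 593 in alveolar macrophages, 153 in B cells and 49.5 in T cells. Gates differ in cell number and depth, and over the 12 gates with all 6 mice only 1 of the 8 stayed among the top 8, so the list is loose.

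Between treatments, no gene was called in any of the 6 gates named next, which is 0% of the genes tested there. Further gates were fitted for Plcb1 and its paralogs, and their counts of called genes are not given here. By edgeR, 313 of 9500 genes in blood endothelium, 545 of 5798 in aerocytes, 345 of 5627 in general capillary cells, 506 of 11663 in alveolar macrophages, 286 of 7615 in classical monocytes and 319 of 8054 in nonclassical monocytes had an unadjusted p under 0.05. DESeq2 called 3, 57, 0, 1, 1 and 5 genes in the same order.

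The Plcb1 log2 fold change, ipilimumab minus IgG1, was 0.06 ± 0.26 (SE) in general capillary cells, 0.18 ± 0.41 in blood endothelium and 0.34 ± 0.73 in aerocytes. It was -0.04 ± 0.12 in alveolar macrophages, -0.11 ± 0.23 in classical monocytes, -0.29 ± 0.39 in nonclassical monocytes and -0.80 ± 0.44 in interstitial macrophages. It was 1.02 ± 0.26 in neutrophils, 2.40 ± 0.75 in B cells and 2.23 ± 0.61 in T cells, in each of which a few cells held most UMIs. Alveolar fibroblasts were too low to fit, and had 54.4, 29.5 and 8.37 CPM with IgG1 against 145, 70.7 and 116 CPM with ipilimumab, without overlap, from 2, 3 and 1 UMIs in 5 to 9 cells a mouse against 74, 8 and 22 UMIs in 12 to 46 cells. Blood endothelium had 2185, 990 and 861 CPM with IgG1 and 1994, 1267 and 1261 CPM with ipilimumab. In each of the 5 gates above ambient the absolute fold change was smaller than its standard error. That error was derived from the F statistic of the fit, so this is a description and not a separate test.

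**Figure D5:**
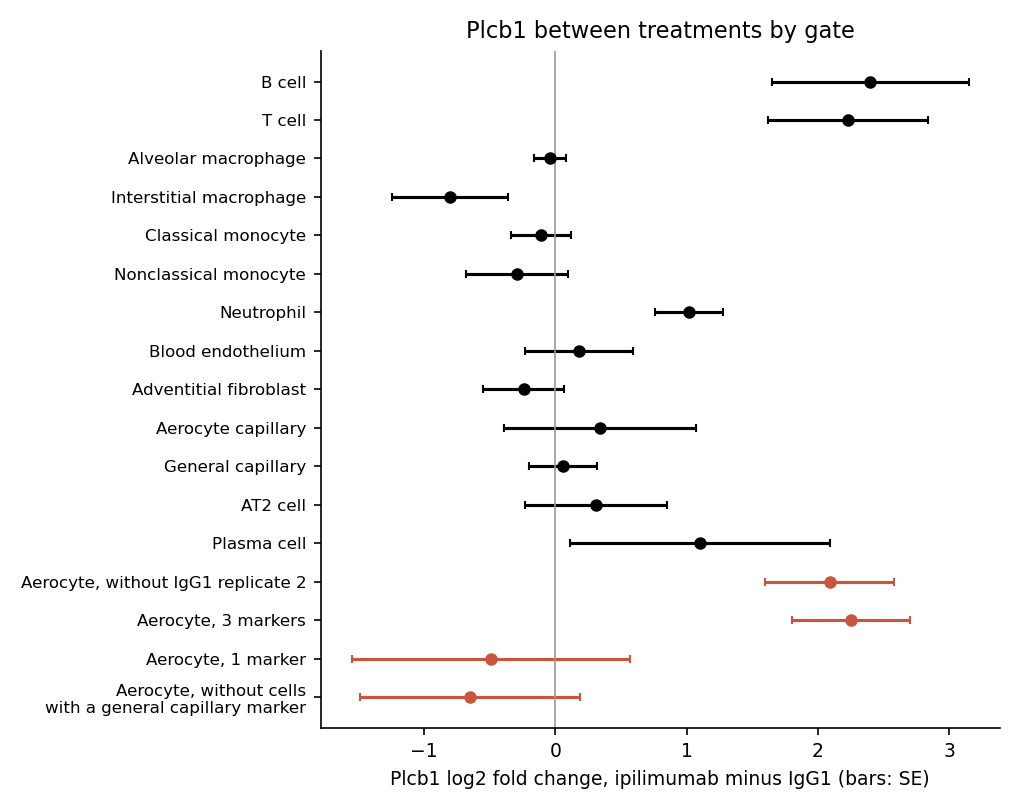
Plcb1 log2 fold change between treatments, ipilimumab minus IgG1 (horizontal axis), by gate, with bars for the standard error derived from the edgeR F statistic. Black points are the gates as fitted, near 0 in general capillary cells and alveolar macrophages. Red points, from -0.65 to 2.25, are the aerocyte gate under other definitions and, at 2.09, the gate as fitted without IgG1 replicate 2.

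The aerocyte value turned on few UMIs and on the definition of the gate. Plcb1 UMIs were in 3 of 49, 3 of 26 and 4 of 50 aerocytes of IgG1 mice and in 9 of 90, 4 of 33 and 10 of 64 of ipilimumab mice. Of the 34 UMIs of IgG1 replicate 2, 31 were in 1 cell, and without this mouse the fold change was 2.09 ± 0.49 (SE). With 3 rather than 2 markers required, that cell dropped out and the mice had 10.1, 6.56 and 11.7 CPM against 40.1, 50.3 and 59.6 CPM, without overlap, from 9 UMIs in 7 cells against 57 in 16 (log2 fold change 2.25 ± 0.45). Aerocytes that also had a UMI of a general capillary marker numbered 3, 1 and 12 in IgG1 mice and 14, 11 and 12 in ipilimumab mice, and held 5, 0 and 0 against 25, 1 and 38 Plcb1 UMIs. Without those cells the mice had 10.3, 187 and 17.1 CPM against 19.5, 59.2 and 43.9 CPM, and the fold change was -0.65 ± 0.84. With 3 markers and without those cells they had 10.6, 6.84 and 17.5 CPM against 0, 68.4 and 6.04 CPM, so the groups overlapped again and Plcb1 was too low to fit. The last 2 definitions, and a gate that asks for 1 marker shown in the plot of fold changes, were added after the data were seen.

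No paralog was called between treatments. Plcb4 had a log2 fold change of 0.36 ± 0.39 in blood endothelium (edgeR adjusted p = 1.0), 0.24 ± 0.22 in general capillary cells (0.940) and -0.17 ± 0.19 in aerocytes (0.821). Plcb3 had -0.77 ± 0.45 in general capillary cells (adjusted p = 0.875) and Plcb2 0.13 ± 0.10 in alveolar macrophages (adjusted p = 0.897). The neighbours were not called either. The antisense 9630028H03Rik had 1.36 ± 0.56 in blood endothelium (edgeR adjusted p = 1.0) and 1.12 ± 0.41 in general capillary cells (adjusted p = 0.666).

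Of the 7 lists of the Gq and phosphoinositide pathway, no member was called in any of the 6 gates. In blood endothelium the list medians ran from -0.19 to 0.05, against -0.03 over all genes. The 5 members with the lowest p there, none of them called, were the calcium channel Orai1 (log2 fold change 0.49 ± 0.21), the lipid kinase Pip5k1a (0.39 ± 0.21), the diacylglycerol kinase Dgka (-0.70 ± 0.41), the IP3 receptor Itpr3 (-0.48 ± 0.33) and the calcineurin regulator Rcan1 (0.42 ± 0.33), all with an edgeR adjusted p of 1.0. Orai1 had 44.6, 41.0 and 58.6 CPM with IgG1 and 64.9, 68.8 and 65.1 CPM with ipilimumab.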

How the data were processed

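Lungs of 6 mice (3 IgG1, 3 ipilimumab) were profiled with 10x 3' chemistry. The authors deposited raw UMI counts per gene and barcode, unfiltered and on mm10. The submitters' processing notes name Cell Ranger 7.0.0. Other sources name other versions, which differ by default in whether intronic reads are counted, and the setting is not given in the sources used here. The authors' later corrected and clustered values were not used.

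Cells were called by a UMI threshold per library or by departure from the ambient profile (false discovery rate 0.01, at least 500 UMIs), with at least 200 genes and at most 10% mitochondrial UMIs. Simulated-doublet scoring removed 794 of 24306 cells (3.27%). Barcodes ranked 45000 to 90000 gave the ambient profile. A gate needed UMIs of at least 2 of its markers and no type of another lineage above 0.75 of its score. This left 423 cells as mixed and 1180 in no gate. Among the main types of the same lineage the highest score decided. Deposited counts were summed per mouse and gate (at least 5 cells) and tested with edgeR 4.0.16 (quasi-likelihood, TMM, filterByExpr, Benjamini-Hochberg over all genes of the gate, called at adjusted p under 0.05 and a log2 fold change beyond 0.3). The standard error of an edgeR log2 fold change was derived as its absolute value divided by the square root of the quasi-likelihood F statistic. DESeq2 1.42.0 was an alternative. Scripts were tested on simulated data. Shares at equal depth came from thinning cells to 2000 UMIs.

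Plcb1, the lists and the markers were chosen with earlier results of these data known. Genes named by rule were Plcb1 to Plcb4, the 5 annotated genes on each side and the 5 list members of lowest p in blood endothelium. The 8 genes most like Plcb1 over gates (at least 200 UMIs) were named too. Other list members named in the comparisons of capillary, monocyte and macrophage gates were picked after their values were seen. Alternatives are given at the close.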

Additional observations from a re-analysis of the deposited data

Results flagged for a closer look

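Cells that no gate took, which enter no comparison of the report, held Plcb1 at 561 CPM pooled over the mice, above the ambient level of 104 to 146 CPM. They were 1180 cells with 9925 Plcb1 UMIs, and by mouse they ran from 416 to 707 CPM. By their highest marker score, 164 of them pointed to alveolar macrophages, and these held 26.1% of the Plcb1 UMIs of ungated cells at 823 CPM, with a UMI in 82.9% of cells. The 97 that pointed to B cells held 11 UMIs at 29.5 CPM. Other ungated cells went both ways from the pooled levels of the gates they pointed to. Those pointing to dendritic cells, neutrophils and T cells had 388, 373 and 176 CPM, against 18.2, 60.4 and 3.97 CPM in the gates. Those pointing to blood endothelium and classical monocytes had 582 and 329 CPM, against 1445 and 1380 CPM. The 111 with no marker had 676 CPM.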

How the results depend on the processing

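The number of gates above ambient in every mouse used stayed at 5 under all 10 alternatives. Leaving out a mouse, or using log2(CPM + 1), could not lower it, so those settings say nothing of its stability. The settings that could were 3 markers for a gate, cells called by the UMI threshold only, and doublets kept. The share of blood endothelial cells with a Plcb1 UMI was 55.3% thinned to 2000 UMIs and 49.9% thinned to 1000. The Plcb1 log2 fold change moved by less than the spread between mice under 14 alternatives in blood endothelium and 15 in general capillary cells, with ranges of -0.08 to 0.72 and -0.14 to 0.26 when each mouse was left out in turn. In aerocytes it was 0.34, moved to 2.25 with 3 markers, and ran from -0.32 to 2.09 when each mouse was left out, the latter without IgG1 replicate 2.

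Counts of genes called between treatments were 0 by edgeR with the main settings. They changed with tool, filter, gate definition and, in the capillary gates, with single mice left out. In blood endothelium DESeq2 called 3 (A930037H05Rik, Ppm1n and Vcam1) and edgeR without the filter 1 (Vcam1). In aerocytes DESeq2 called 57, edgeR without the filter 178, with 3 markers 30, and with 3 markers and without cells with a general capillary marker UMI 3 (Ptprc, Rps24 and Tmsb4x). In general capillary cells edgeR called 111 without the filter and 1 with 3 markers (Macrod2). Leaving out each mouse gave 0 to 1 in aerocytes (Tmsb10 without IgG1 replicate 2), 0 to 5 in general capillary cells (5 without IgG1 replicate 3, 1 each without IgG1 replicate 2 and ipilimumab replicate 3) and 0 in blood endothelium. The cause was not tested.

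Replicate numbers are shared between groups, but same-numbered mice deviated together only in part, with correlations of 0.39, 0.53 and -0.32 in blood endothelium, 0.31, 0.22 and -0.26 in aerocytes and 0.06, 0.01 and -0.03 in general capillary cells. With the number as a replicate block the Plcb1 log2 fold changes were 0.28, 0.66 and 0.09, and 0 genes were called in each.

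Aerocyte Plcb1 rests on 5 to 56 UMIs a mouse. Its difference between treatments changed in sign and size with the gate definition and with single mice left out, so it was not resolved here.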

Other observations

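Some gates were too small for a comparison, and their Plcb1 values are given as counts of cells. A Plcb1 UMI was found in 10 of 15 pericytes, the contractile cells on capillaries, with a median of 2.00 UMIs a cell, and in 6 of 10 smooth muscle cells. The 5 platelets or megakaryocytes all had one, with a median of 8.0. All 5 also had UMIs of alveolar macrophage markers and 2 lay near another lineage, and the part of this in the value was not tested. Of 184 AT2 cells, the surfactant-making cells of the alveolus, 49 had a UMI (26.6%), at a median depth of 14882 UMIs against 1336 in those without. In ipilimumab replicate 1, which gave 136 of these cells, the share was 17.6%, and in the other 4 mice with at least 5 AT2 cells it ran from 42.9 to 63.6%. AT2 cells had 101 to 414 CPM in the 5 mice with at least 5 of them. Of 70 plasma cells 10 had a UMI, and 5 of these held 5 or more.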
